A study of Arabidopsis thaliana with 12 samples.

Results

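Growth in light was compared with growth in darkness in Arabidopsis thaliana seedlings in which SNF4 was silenced. The comparison rests on 6 of the 12 Affymetrix ATH1 arrays of the study, chosen by their sample titles: 3 arrays of light-grown and 3 of dark-grown amiR-SNF4 seedlings, titled as biological replicates. The other 6 arrays, 3 of light-grown and 3 of dark-grown wild-type seedlings, were used to show where the silenced line differed, and they entered the same fit, so that they also set the spread behind its p-values. All 4 groups were of the Col-0 background. Their medium held 0.5% sucrose at a growth temperature of 22 °C, together with 5 µM β-estradiol, a steroid hormone used in plants to switch on transgenes. The silenced seedlings carried an artificial microRNA against SNF4, and no group without β-estradiol and no other transgenic line entered the comparison. Whole seedlings were collected 5 days after germination and 4 h after the start of the light period of a cycle of 8 h light and 16 h dark. This cycle was given for the dark-grown groups as well, so the light that those seedlings received cannot be read from it. The light-grown labels alone added an age of 7 days after sowing. The stated light intensity was 120 in one place, the sample labels, and 400 in another, the design text. The labels did not say whether replicates came from separate cultures or how many transgenic lines were used, so p-values measure only how far these arrays varied among themselves, which may be technical variation.

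SNF4 is the activating subunit of SnRK1, the plant relative of the yeast SNF1 and animal AMPK kinases, which senses low energy and switches cells from growth to the breakdown of reserves. A seedling that germinates in darkness elongates its hypocotyl, keeps its cotyledons closed and its plastids without chlorophyll, and lives on seed oil and protein. In light the seedling opens its cotyledons, builds chloroplasts and begins to feed itself, and much of this change is made by turning nuclear genes up or down.

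The arrays themselves differed with the growth condition. The median intensity over 22746 non-control probe sets was 50.02, 61.4 and 56.5 on the dark amiR-SNF4 arrays (56.0 ± 5.71, SD, n = 3) and 69.1, 70.1 and 86.1 on the light arrays (75.1 ± 9.53, n = 3). The 9 hybridization-control probe sets, which read transcripts spiked into every sample, had medians of 467, 478 and 477 on the dark arrays and 236, 222 and 271 on the light arrays. The dark arrays were thus dimmer for plant transcripts and brighter for the spiked controls, without overlap in either measure (exact two-sided permutation test, p = 0.1 for each, the smallest that 3 against 3 arrays allows). The wild-type arrays were split the same way by the spiked controls, at 437 ± 19.5 in darkness and 265 ± 51.1 in light (SD, n = 3 each). No label gave an array batch, but array batch coincided with growth condition in this sense, and a batch effect and an effect of light cannot be told apart in any result given here.

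**Figure D1:**
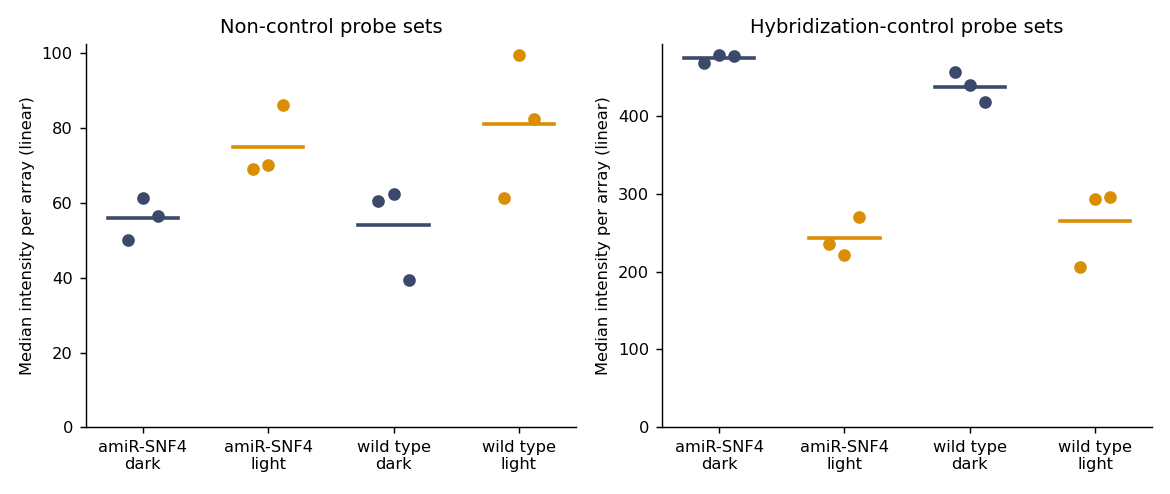
Median intensity per array (linear scale, from 0) of the non-control probe sets (left) and of the 9 hybridization-control probe sets (right), with 1 point per array and a bar at the mean of each group of 3. The amiR-SNF4 dark arrays lie below the light arrays on the left (50.02 to 61.4 against 69.1 to 86.1) and above them on the right (467 to 478 against 222 to 271).

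Arrays were therefore quantile-normalized, and values are given as log2 of the normalized intensity plus 16, called the log2 signal, on which 4 is the lowest value an array can give. A fold change is on this scale, which understates the change of dim genes. Directions are relative to the typical gene: the median change over all genes was -0.01 (log2), but 0.16 without normalization and 0.81 when arrays were scaled to the spiked controls. The split of called genes moved with it, to 2511 higher and 747 lower without normalization and to 8623 higher and 273 lower with the spiked controls. Where either of these turned the sign of a gene list's median, this is said beside the list. The lowest correlation between arrays was 0.961 within the dark and 0.985 within the light amiR-SNF4 group, and the highest between the groups was 0.916. No probe set was named as SNF4 in the annotation used here, so the silencing itself could not be checked.

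Of 13356 genes measured by a probe set that names 1 gene, 4493 (33.6%) were called between light and darkness at a Benjamini-Hochberg adjusted p under 0.05 in limma. Light-grown seedlings had 2369 genes higher (17.7%) and 2124 lower (15.9%). Of the called genes 1760 (13.2% of all) changed at least 2-fold, 964 of them higher (7.22%) and 796 lower (5.96%), and 145 rose and 150 fell at least 4-fold. At an unadjusted p under 0.05 there were 5652 genes. In 6087 genes (45.6%) the 3 light and 3 dark arrays did not overlap. For 657 called genes 1 of the groups had a mean log2 signal under 5, close to the floor, and the size of their change is set in part by the constant of 16. In whole seedlings, a lower level cannot be told apart from fewer cells of the type that makes the transcript.

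Nuclear genes for the photosynthetic machinery were among those that rose. All 6 measured subunits of the photosystems and of the chloroplast electron transport chain and ATP synthase were called higher, with a median change of 1.53 (log2) against -0.01 over all genes, and 17.7% of all genes were called higher. PSAN, a subunit on the lumenal side of photosystem I, had log2 signals of 8.65, 9.56 and 9.28 in darkness and 11.16, 11.25 and 11.38 in light. Its 3 light arrays lay well above the dark ones, and the rise was 2.1025 ± 0.20 (log2, SE; 4.29-fold; adjusted p = 7.62e-06, limma). ATPC1, the gamma subunit that turns within the chloroplast ATP synthase, rose by 1.79 ± 0.25, PSBY, a small photosystem II protein, by 1.72 ± 0.29, and PSAE-1, a stromal photosystem I subunit, by 1.35 ± 0.21. PSBW and the photosystem II repair factor PSB27 rose by 1.33 and 0.89. The same 6 genes were called higher in wild type, where their median was 1.08, and none differed between the genotypes.

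Genes of carbon fixation rose as well. All 3 measured genes of the Calvin cycle rose, with a median of 2.102, where 17.7% of all genes were called higher. SBPASE, the sedoheptulose bisphosphatase that regenerates the carbon dioxide acceptor, read 7.41, 8.09 and 7.63 in darkness and 10.72, 10.47 and 10.59 in light. The groups were far apart, by 2.89 ± 0.22 (7.40-fold; adjusted p = 1.41e-06, limma). RCA, the Rubisco activase and the only green-tissue marker of the list of marker genes that was measured, went from 10.36, 10.64 and 9.95 to 12.49, 12.39 and 12.38, a rise of 2.102 ± 0.19. PRK, phosphoribulokinase, rose by 1.92 ± 0.26 in amiR-SNF4 against 0.36 in wild type, where it was not called, and the difference between the genotypes was called (1.56; adjusted p = 0.0204, limma, and up to 0.0584 with 1 array left out). Of 4 photorespiration genes 3 rose: the peroxisomal hydroxypyruvate reductase HPR by 1.61 ± 0.21, and 2 further loci of the list, AT1G32470 by 2.58 ± 0.26 and AT1G11860 by 1.61 ± 0.21. The fourth, AT1G80380, changed by -0.28 and was not called.

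**Figure D2:**
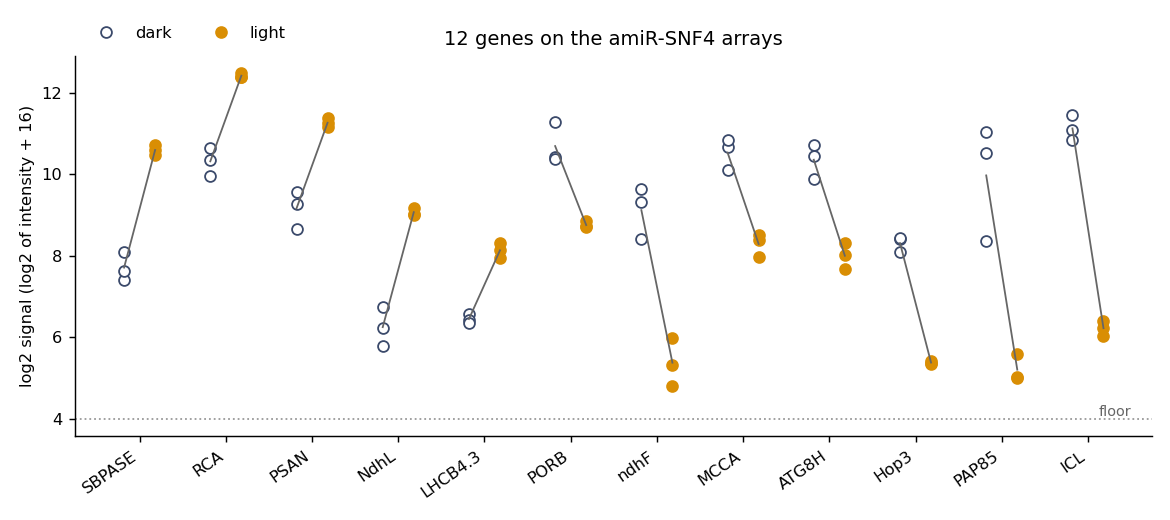
Log2 signal of 12 genes on each amiR-SNF4 array, with open points for the 3 dark arrays, filled points for the 3 light arrays and a line between the group means. SBPASE, RCA, PSAN, NdhL and LHCB4.3 lie higher in light (SBPASE rises by 2.89), PORB and the plastid gene ndhF lie lower, and genes of seed reserves, starvation, autophagy and heat shock lie lower (ICL falls by 4.91).

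The antenna proteins measured were the 3 isoforms of CP29, a minor antenna of photosystem II, and they did not move together. LHCB4.1 rose by 0.95 ± 0.24. LHCB4.3, the isoform least like the others, went from 6.58, 6.41 and 6.35 in darkness to 8.15, 7.94 and 8.31 in light, a rise of 1.69 ± 0.13 (3.22-fold; adjusted p = 1.41e-06, limma). LHCB4.2 fell by 0.93 ± 0.23, from 9.15, 10.16 and 9.34 to 8.73, 8.63 and 8.49. The highest light array of LHCB4.2 was therefore below the lowest dark array, though dark replicate 2 stood above the other dark arrays. In wild type LHCB4.3 changed by -0.21, which was not called, and its light effect differed between the genotypes by 1.90 (adjusted p = 5.44e-05, limma).

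Relative to the typical gene, the genes of chlorophyll synthesis split by step. Of 8 measured genes 5 rose, 2 fell and CHLM, the magnesium protoporphyrin methyltransferase, was not called (0.15), with a median of 0.57. Over all genes, 17.7% were called higher and 15.9% lower. The genes of the list that rose act before the insertion of magnesium or in it. GSA1, glutamate-1-semialdehyde aminotransferase, rose by 1.06 ± 0.17, and the uroporphyrinogen decarboxylase HEME2 by 0.95 ± 0.15. CHLI2, a magnesium chelatase subunit, rose by 1.24 ± 0.33, HEME1 by 0.73 ± 0.24 and HEMB1, the aminolevulinate dehydratase, by 0.41 ± 0.14. Without dark replicate 1 or 3, or light replicate 1 or 2, neither HEME1 nor HEMB1 was called (adjusted p from 0.0533 to 0.114) and 3 of the 8 genes rose, and HEMB1 was lost without light replicate 3 as well (0.0859). Those that fell act late: PORB, one of the enzymes that reduce protochlorophyllide and a main protein of dark plastids, and AT1G74470, annotated as geranylgeranyl reductase. PORB read 10.43, 11.27 and 10.38 in darkness and 8.84, 8.72 and 8.69 in light, a fall of 1.94 ± 0.26 (adjusted p = 0.000109, limma). AT1G74470 fell by 0.92 ± 0.21. Wild type had the same 5 and 2 calls by count, and no difference between the genotypes was called for any of the 8. The falls in amiR-SNF4 depended on the scaling. Without normalization 5 genes were called higher and 1 lower, and with the spiked controls 7 were higher and none lower.

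Within the plastid genome 69 genes were measured, of which 11 were called higher and 20 lower, beside 17.7% and 15.9% of all genes. Their median of -0.15 turned positive without normalization (0.16) and with the spiked controls (1.09). Without dark replicate 1 or light replicate 3 the number higher was 7, with medians of -0.40 and -0.52, and without light replicate 1 the median was 0.16. The labelled RNA was made with a kit that primes on poly(A), which plastid messages carry little of, and what this does to their signal was not tested. The plastid genes did not move as a block. Of the 10 subunits of the NDH complex, the plastid NAD(P)H dehydrogenase-like complex of cyclic electron flow, 7 fell and none rose, with a median of -1.38. Of the 20 photosystem subunits 6 rose and 4 fell, of 15 ribosomal proteins 3 rose and 4 fell, and none of the 6 ATP synthase subunits was called. The largest fall was that of ndhF, from 8.41, 9.32 and 9.63 to 5.32, 4.81 and 5.99, by 3.75 ± 0.45 (adjusted p = 4.16e-05, limma). The cytochrome b6f subunit petD fell by 2.51 ± 0.30, rbcL, the large subunit of Rubisco, by 1.79 ± 0.27, and ndhA by 1.56 ± 0.16. In the other direction rpl33, a ribosomal protein, rose by 1.38 ± 0.21, from 9.44, 9.64 and 9.83 to 10.98, 10.77 and 11.30.

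Relative to the typical gene, nuclear genes for the same NDH complex and its assembly went the other way from the plastid ones. Of 8 measured, 7 rose and none fell, with a median of 1.22, where 17.7% of all genes were called higher. NdhL, a subunit that holds the complex to the membrane, read 5.77, 6.74 and 6.22 in darkness and 9.03, 8.99 and 9.18 in light. The gap between the groups was 2.82 ± 0.21 (7.07-fold; adjusted p = 1.21e-06, limma). NdhN rose by 2.22 ± 0.22 and CRR41, an assembly factor, by 1.63 ± 0.13. The medians in wild type were 1.60 for the nuclear and -1.02 for the plastid-encoded members, and no difference between the genotypes was called for any of the 69 plastid-encoded genes or the 18 NDH genes. For the 18 NDH genes together, 7 were called higher and 7 lower in amiR-SNF4. Without normalization these counts were 8 and 3, and with the spiked controls 10 and 2, so the falls depended on the scaling.

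Few regulators of light responses were measured. HYH, a transcription factor related to HY5, fell by 1.05 ± 0.27, from 6.13, 7.16 and 7.08 to 5.52, 5.77 and 5.93. FHL, which carries phytochrome A into the nucleus, fell by 0.60 ± 0.21 (adjusted p = 0.0382, limma), and its change in wild type was -1.78 (difference 1.18; adjusted p = 0.0242). Neither was firm: the fall was lost without dark replicate 2 or 3 or any 1 light array (adjusted p from 0.0791 to 0.135), and the difference reached an adjusted p of 0.066 with 1 array left out. With the spiked controls the median of this pair was 0.22, under the 0.81 of all genes. GI, a clock-associated protein and the only clock gene measured, fell by 0.79 ± 0.13, a change that was 0.38 with the spiked controls. Of 5 flavonoid genes 3 were called, all higher, where 17.7% of all genes were called higher. Only 1 was called without dark replicate 1 or 3 or light replicate 1 or 3. UGT78D1, a flavonol rhamnosyltransferase, had the clearest rise, from 4.48, 4.72 and 5.12 to 6.42, 5.94 and 6.49 (1.51 ± 0.24; adjusted p = 0.000338, limma). CHIL, a chalcone isomerase-like protein, changed by 0.50 and was not called in amiR-SNF4, but rose by 2.16 in wild type (difference -1.66; adjusted p = 0.0139). Without light replicate 2 CHIL was called higher in amiR-SNF4 too (0.76; adjusted p = 0.0422).

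The largest falls were in genes of seed reserves and their mobilisation. Of 10 measured genes 9 fell and 1 rose, with a median of -2.32 against -0.01 over all genes, and 15.9% of all genes were called lower. ICL, the isocitrate lyase of the glyoxylate cycle by which seed oil becomes sugar, read 11.46, 11.08 and 10.84 in darkness and 6.41, 6.21 and 6.04 in light. It fell by 4.91 ± 0.37, or 29.97-fold (adjusted p = 1.08e-06, limma), the largest fall on this scale. PAP85, a vicilin-like seed storage protein, fell by 4.77 ± 0.56, from 11.04, 8.35 and 10.52 to 5.02, 5.00 and 5.59. The dark arrays of PAP85 were uneven, with replicate 2 low, but all 3 stood above the light arrays. M17 and LEA18, seed proteins of the late embryogenesis abundant (LEA) family, fell from 8.37, 8.20 and 9.65 and from 7.59, 7.06 and 8.43 to between 4.01 and 4.06, the floor of the arrays. Their falls are cut off there, and the order depends on the constant: with 1 in place of 16 the changes were -8.31 for M17, -6.92 for LEA18, -5.52 for PAP85 and -5.22 for ICL. The gene that rose was AT2G44060, a locus on the LEA part of the list, by 0.66 ± 0.15.

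The wider LEA family, whose proteins shield cells during drying, showed the same direction in most of its called members. This list was not among those first planned, and it shares members with the seed reserve list, M17 among them. The 2 lists are therefore not independent. Of 35 measured, 19 fell, 3 rose and 13 were not called, where 15.9% of all genes were called lower and 17.7% higher. The median was -1.04, and 23 of the 35 had a group mean close to the floor. AT3G53040 fell by 4.32 ± 0.30 and AT2G23110 by 4.15 ± 0.32, each about as far as the storage proteins. For both, the fall was larger than in wild type, by 1.74 (adjusted p = 0.0218) and 1.91 (adjusted p = 0.0199, limma). With 1 array left out these p-values reached 0.0556 and 0.0569. M10 fell by 3.19 ± 0.23. AT1G54410 rose, from 8.42, 9.18 and 9.14 to 10.53, 10.32 and 10.42 (1.51 ± 0.19; adjusted p = 4.94e-05). Among histones, HIS1-3, a linker histone known from drought-stressed plants, fell by 1.89 ± 0.19 and the core histone HTB2 rose by 1.53 ± 0.17.

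Genes that plants switch on in darkness and starvation, several of them known to respond to SnRK1, fell in light in the line with silenced SNF4. Of 8 measured genes 7 fell and none rose, where 15.9% of all genes were called lower. The median was -1.24, which with the spiked controls became 0.00 against 0.81 for all genes. Without normalization 5 were called lower and none higher, and with the spiked controls 2 were lower and 3 higher. MCCA, a subunit of the methylcrotonyl-CoA carboxylase that breaks down leucine, read 10.66, 10.83 and 10.11 in darkness and 8.38, 8.51 and 7.98 in light. Each light array was at least 1 unit below each dark array, and MCCA fell by 2.24 ± 0.23 (4.74-fold; adjusted p = 1.02e-05, limma). Its partner subunit MCCB fell by 1.29 ± 0.17. IVD, the isovaleryl-CoA dehydrogenase of the same pathway, fell by 1.75 ± 0.16, and ETFQO, which passes its electrons to the mitochondrial chain, by 1.54 ± 0.21. The changes of these 4 genes in wild type were -2.20, -1.51, -2.40 and -1.33, and no difference between the genotypes was called for them. SAG101, a senescence-associated lipase-like protein that also acts in immunity, fell by 0.68 in amiR-SNF4 and rose by 0.51 in wild type (difference -1.19; adjusted p = 0.00445).

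Among the subunits of SnRK1 and related proteins 6 were measured, of which 3 fell and 1 rose, beside 15.9% and 17.7% of all genes. None rose without dark replicate 2 or light replicate 1. The median was -0.46, and 0.74 with the spiked controls. AKINBETA1, a beta subunit, fell by 0.83 ± 0.17, from 8.90, 9.62 and 9.15 to 8.42, 8.56 and 8.22. The fall in wild type was 1.62, and the difference of 0.79 was not called (adjusted p = 0.0655, limma). AT1G15330 fell by 0.77 ± 0.16 against 1.69 in wild type, and this difference was called (0.92; adjusted p = 0.0242, up to 0.068 with 1 array left out). AT1G80940 fell by 0.62 ± 0.16.

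Autophagy, the delivery of cell contents to the vacuole for breakdown, was represented by 11 genes, mostly of the ATG8 family, whose proteins coat the autophagosome. Of these 8 fell and none rose, where 15.9% of all genes were called lower. The median was -0.99, which with the spiked controls was 0.39 against 0.81 for all genes. The calls depended on the scaling: 2 were lower and none higher without normalization, and 1 lower and 4 higher with the spiked controls. ATG8H read 9.89, 10.73 and 10.45 in darkness and 7.67, 8.30 and 8.03 in light. It fell by 2.36 ± 0.26 (5.12-fold; adjusted p = 2.42e-05, limma), the largest fall of the list, and its change of -0.15 in wild type was not called (difference -2.21; adjusted p = 0.00263). The means of ATG8H in wild type were 7.58 in darkness and 7.43 in light. APG8A fell by 1.43 ± 0.18, ATG8F by 1.09 ± 0.17 and AT5G66930 by 1.29 ± 0.17, with wild-type changes of -1.37, -1.02 and -0.80. ATG8B went the other way between the genotypes, with a change of -0.99 ± 0.22 in amiR-SNF4 and -2.32 in wild type (difference 1.33; adjusted p = 0.0174, and 0.0505 without light replicate 3 of amiR-SNF4). The count of falls was 8 in each genotype, and differences were called for 2 of the 11 genes.

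**Figure D3:**
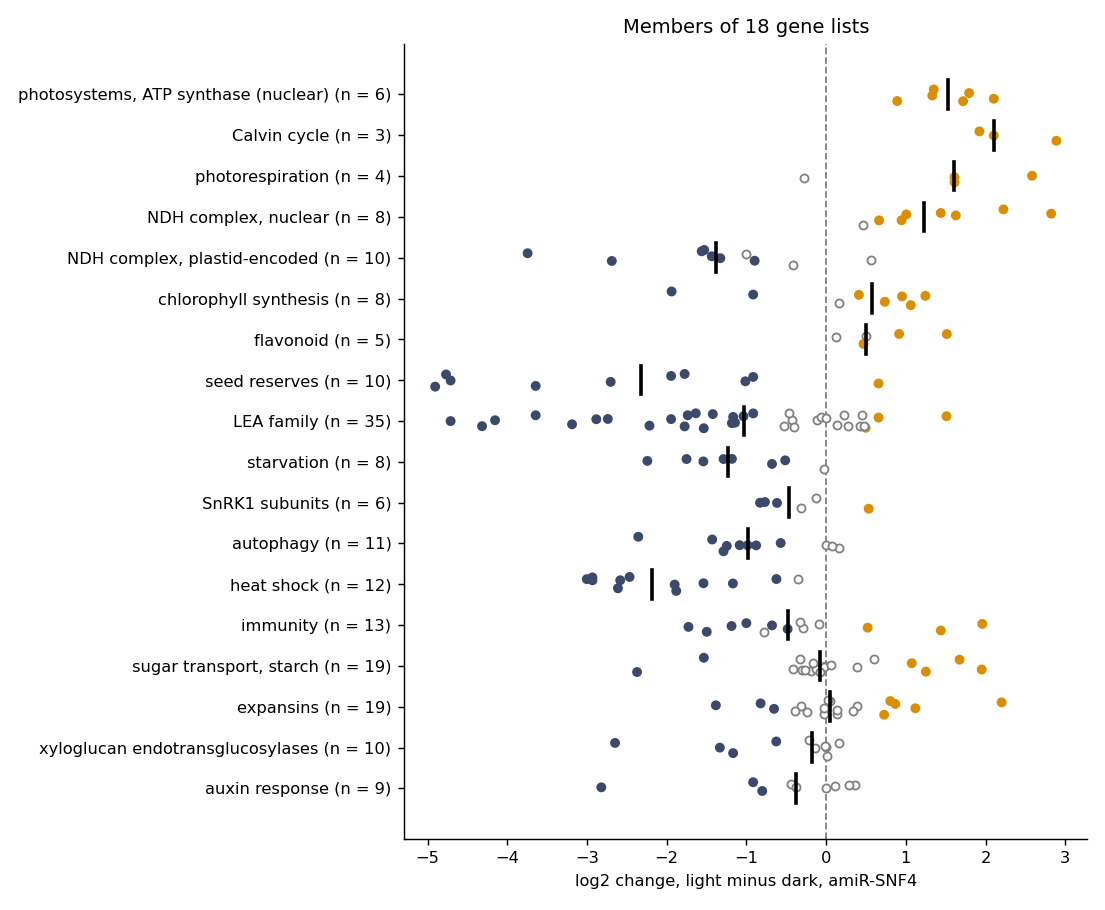
Change from darkness to light (log2, light minus dark) of each measured member of 18 gene lists in amiR-SNF4, with 1 point per gene, filled where called at adjusted p under 0.05, and a bar at the list's median. The dashed line marks the median of all genes (-0.01). Photosystem, Calvin cycle and nuclear NDH genes lie to the right, and seed reserve, starvation, autophagy and heat shock genes to the left. Scaling to the spiked controls moves the median of all genes to 0.81 and the medians of the starvation, autophagy, xyloglucan endotransglucosylase, auxin, SnRK1, sugar transport and immunity lists above 0.

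Of 19 genes of sugar transport and starch 4 rose and 2 fell, beside 17.7% and 15.9% of all genes, with a median of -0.07, positive without normalization (0.13) and with the spiked controls (0.78). SWEET11, a plasma membrane sucrose exporter that loads the phloem, read 7.64, 8.38 and 8.36 in darkness and 10.15, 10.08 and 10.0004 in light. It rose by 1.95 ± 0.18 (3.87-fold; adjusted p = 6.59e-06, limma), whereas in wild type it fell by 1.38. The difference between the genotypes was 3.33 (adjusted p = 1.24e-05). SWEET1, a glucose transporter, rose by 1.67 ± 0.18, and SWEET2, a vacuolar transporter, fell by 2.37 ± 0.20, from 9.89, 9.20 and 9.81 to 7.13, 7.22 and 7.43. Both changes were larger than in wild type (0.65 and -1.10; differences 1.03 and -1.27, adjusted p = 0.0252 and 0.0152). The difference of SWEET1 reached an adjusted p of 0.0685 with 1 array left out. SBE2.2, a starch branching enzyme, rose by 1.25 ± 0.17.

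Heat shock proteins and their co-chaperones fell in light, and most of those measured fell further in amiR-SNF4 than in wild type. Of 12 measured genes 11 were called lower and none higher, with a median of -2.18, and the light and dark arrays of all 12 did not overlap, as in 45.6% of all genes. In wild type 6 were called lower, the median was -0.47, and the difference between the genotypes was called for 8 of the 12, lower in amiR-SNF4 each time, where 3.92% of all genes had such a call. This list was drawn up after some values had been seen. Hop3, a co-chaperone that joins HSP70 to HSP90, read 8.41, 8.08 and 8.44 in darkness and 5.42, 5.36 and 5.34 in light, and fell by 2.93 ± 0.15 (7.64-fold; adjusted p = 8.51e-08, limma). The wild-type change of Hop3 was -0.69, and the difference was -2.25 (adjusted p = 5.20e-05). AT1G52560 fell by 3.003 ± 0.21, AT2G29500 by 2.61 ± 0.18 and AT3G09440 by 2.58 ± 0.14, all loci on the heat shock list, with wild-type changes of -0.88, -0.41 and -0.74. Fes1A, a partner of cytosolic HSP70, fell from 9.55, 9.89 and 10.13 to 7.15, 7.74 and 7.28 (2.47 ± 0.18) and changed by -0.04 in wild type (difference -2.43; adjusted p = 8.99e-05). In the endoplasmic reticulum, where unfolded proteins set off a response of their own, 2 of 7 genes fell and none rose. Over all genes, 15.9% were called lower and 17.7% higher. The median of the 7 was -0.35, and 0.93 with the spiked controls, and 1 fell without dark replicate 1 or light replicate 1 or 2. BZIP28, a membrane-held transcription factor of that response, fell by 0.73 ± 0.16.

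**Figure D4:**
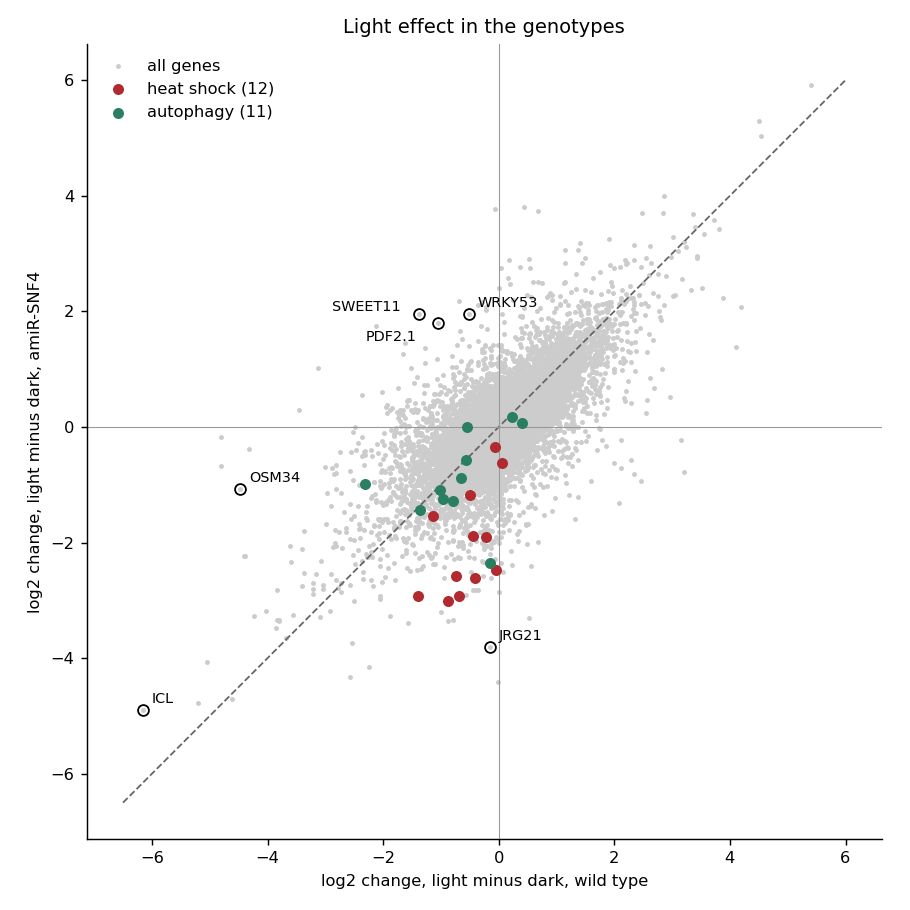
Change from darkness to light (log2) in amiR-SNF4 (vertical axis) against that in wild type (horizontal axis) for 13356 genes in grey, with the 12 heat shock genes, the 11 autophagy genes and 6 genes named in the text marked. The diagonal is an equal change. The 12 heat shock genes lie below it, with medians of -2.18 in amiR-SNF4 and -0.47 in wild type, and SWEET11, WRKY53 and PDF2.1 rise in amiR-SNF4 but fall in wild type.

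Genes of oxidative and mitochondrial stress moved in both directions, 5 higher and 4 lower of 16 beside 17.7% and 15.9% of all genes, with a median of -0.03 that was positive without normalization (0.21) and with the spiked controls (0.97). Without light replicate 3 the number higher was 3. Most are tau-class glutathione transferases, enzymes that join glutathione to toxic compounds. Of 11 such genes 4 rose and 2 fell. GSTU20 went from 4.48, 5.72 and 5.93 to 8.68, 8.35 and 8.67, a rise of 3.19 ± 0.31 (9.10-fold; adjusted p = 8.06e-06, limma). GSTU22 fell by 2.21 ± 0.18, from 11.77, 12.40 and 12.40 to 9.85, 9.9995 and 10.08. NDB2, an external NADH dehydrogenase of mitochondria, fell by 1.62 ± 0.18 and AT2G21640 by 2.58 ± 0.26. The wild-type changes of NDB2 and AT2G21640 were -0.41 and -0.27, neither called, and the differences were -1.21 (adjusted p = 0.00989) and -2.31 (adjusted p = 0.00192). GSTU20 rose by 1.40 in wild type (difference 1.78; adjusted p = 0.0245, up to 0.0675 with 1 array left out).

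Of 13 genes of salicylate signalling and immunity 6 fell and 3 rose, beside 15.9% and 17.7% of all genes. The median was -0.48, which was 0.69 with the spiked controls. Without normalization 3 were called lower and 2 higher, and with the spiked controls 2 were lower and 8 higher. WRKY53, a transcription factor of senescence and defence, read 5.82, 5.93 and 5.43 in darkness and 7.64, 7.68 and 7.73 in light, a rise of 1.96 ± 0.16 (3.88-fold; adjusted p = 2.35e-06, limma). In wild type it fell by 0.52, and the difference was 2.47 (adjusted p = 4.00e-05). Its relatives went down: WRKY6 fell by 1.499 ± 0.19 and WRKY22 by 1.00 ± 0.14, with wild-type changes of -0.49 and -0.30 that were not called. GRX480, a glutaredoxin of salicylate responses, fell by 1.73 ± 0.16, from 8.65, 9.11 and 9.23 to 7.02, 7.38 and 7.40. Small secreted cysteine-rich peptides and defensins also split, with 4 higher and 3 lower of 13, beside 17.7% and 15.9% of all genes. Their median of -0.03 was 0.07 without normalization and 0.41 with the spiked controls. LCR68 and LCR69 rose by 2.50 ± 0.33 and 2.37 ± 0.30, and LCR67 fell by 3.35 ± 0.38, from 7.14, 7.83 and 8.45 to 4.04, 4.05 and 5.28. PDF2.1 rose by 1.81 ± 0.28 in amiR-SNF4 and fell by 1.05 in wild type (difference 2.86; adjusted p = 0.000842).

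Expansins, proteins that loosen the cell wall as cells elongate, moved in both directions. Of 19 measured, 3 fell and 5 rose in amiR-SNF4, and 9 fell and 3 rose in wild type, beside 15.9% lower and 17.7% higher of all genes in amiR-SNF4 and 16.4% and 18.4% in wild type. The medians were 0.04 and -0.40, and the difference was called for 6 genes, beside 7.98% of all genes. EXPA9 fell by 1.38 ± 0.15, from 9.39, 9.34 and 9.25 to 8.17, 8.00 and 7.64, and EXPA16 rose by 2.2003 ± 0.16, from 5.88, 5.53 and 5.68 to 7.72, 7.95 and 8.02. For EXPA16 the wild-type change was 0.25 and not called (difference 1.95; adjusted p = 0.00023, limma), and for EXPA9 it was -0.54 (difference -0.84; adjusted p = 0.0255, up to 0.0638 with 1 array left out). EXPA4 fell by 0.65 in amiR-SNF4 and by 2.33 in wild type (difference 1.68; adjusted p = 0.00027).

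Xyloglucan endotransglucosylases, which cut and rejoin wall xyloglucan, fell in 4 of 10 cases and rose in none, beside 15.9% and 17.7% of all genes. Their median of -0.18 was 0.00 without normalization and 0.18 with the spiked controls. XTH18 fell by 2.65 ± 0.29, from 10.08, 9.95 and 10.78 to 7.82, 7.89 and 7.16 (6.27-fold; adjusted p = 2.06e-05, limma), and by 2.21 in wild type. XTH32 was not called in amiR-SNF4 (-0.22) and rose by 2.11 in wild type (difference -2.33; adjusted p = 9.44e-05). Of 12 cellulose synthase-like and pectin methylesterase genes 3 rose and 1 fell, beside 17.7% and 15.9% of all genes. Only 1 rose without light replicate 2. PMEPCRF, a pectin methylesterase, rose from 6.91, 6.70 and 6.34 to 9.18, 9.17 and 9.13 (2.51 ± 0.16; 5.70-fold; adjusted p = 2.80e-07) and by 0.68 in wild type (difference 1.83; adjusted p = 0.000267). CSLD2, a cellulose synthase-like protein of tip-growing cells, fell by 1.28 ± 0.19.

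Of the trichome birefringence-like family, several of whose members acetylate wall polymers, 5 rose and 7 fell of 23, beside 17.7% and 15.9% of all genes, with a median of -0.15 that was positive in raw value without normalization (0.18), with the spiked controls (0.81) and with dim genes left out (0.06). The falls numbered 4 without dark replicate 1 or light replicate 1, and the rises 3 without light replicate 1 or 3. TBL45 rose by 2.51 ± 0.13, from 5.59, 5.53 and 5.72 to 8.24, 7.97 and 8.16. TBL41 fell by 1.70 ± 0.27 and TBL37 rose by 1.49 ± 0.16, and in wild type their changes were 0.47 and -0.35, neither called. The differences were -2.17 (adjusted p = 0.00349, limma) and 1.84 (adjusted p = 0.000307).

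Auxin drives elongation of the dark-grown hypocotyl. Of 9 genes of auxin response and hook growth 3 fell and none rose, where 15.9% of all genes were called lower. Without normalization 2 were called lower and none higher, and with the spiked controls 1 was lower and 5 were higher. The median was -0.38, and 0.64 with the spiked controls. IAA20, an Aux/IAA protein of auxin signalling, read 6.45, 7.87 and 7.12 in darkness and 4.23, 4.24 and 4.50 in light, a fall of 2.82 ± 0.33 (7.07-fold; adjusted p = 3.57e-05, limma). Its light arrays lay close to the floor, so the size of this fall is set in part by the constant of 16. WES1, an enzyme that conjugates auxin to amino acids, fell by 0.92 ± 0.17 and its wild-type change was -2.53 (difference 1.61; adjusted p = 0.00115). IAA29, another Aux/IAA gene known to be induced by shade, changed by 0.11 (-0.10 without dark replicate 1) and was not called, while it fell by 1.71 in wild type (difference 1.82; adjusted p = 0.0015). In wild type 6 of the 9 fell, with a median of -1.04.

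Enzymes of conjugation and specialised metabolism moved as single genes. Of 51 UDP-glycosyltransferases, which attach sugars to small molecules, 10 rose and 15 fell, beside 17.7% and 15.9% of all genes, with a median of -0.13, which was 0.63 with the spiked controls. The difference between the genotypes was called for 7 of them, each lower in amiR-SNF4, as for 3.92% of all genes. UGT76E2 fell by 2.2005 ± 0.12, from 7.80, 7.70 and 7.71 to 5.61, 5.40 and 5.60, and its wild-type change was -2.30. UGT73C7 fell by 1.83 ± 0.19 in amiR-SNF4 and changed by -0.31 in wild type (difference -1.52; adjusted p = 0.00309, limma). Beta-glucosidases, which release such sugars again, fell in 8 and rose in 3 of 22 cases, beside 15.9% and 17.7% of all genes. Their median was -0.15, and 0.30 with the spiked controls, and 12 of the 22 had a group mean close to the floor. BGLU28, an enzyme that breaks down glucosinolates under sulfur shortage, read 8.04, 7.43 and 7.64 in darkness and 4.92, 4.87 and 4.88 in light, a fall of 2.81 ± 0.17 (7.03-fold; adjusted p = 1.97e-07). BGLU25 fell by 2.32 ± 0.15. The wild-type changes of BGLU28 and BGLU25 were -0.44 and -0.29, neither called, and the differences were -2.37 (adjusted p = 5.90e-05) and -2.03 (adjusted p = 9.07e-05). BGLU28 had wild-type means of 5.22 in darkness and 4.78 in light, and BGLU25 had 8.01 and 7.72. BGLU33 rose by 1.56 ± 0.21. Of 24 cytochromes P450 3 rose and 3 fell, beside 17.7% and 15.9% of all genes, and 12 had a group mean close to the floor. Their median of -0.12 was 0.0046 without normalization and 0.56 with the spiked controls. The called ones included CYP71B36, up by 1.46 ± 0.16, and CYP71B6, down by 1.53 ± 0.17.

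Of 5 root genes 2 rose and none fell, with a median of 0.67, where 17.7% of all genes were called higher. The 2 were the root hair expansins EXPA18 and EXPA7, up by 1.12 ± 0.21 and 0.87 ± 0.21, with no log2 signal above 5.99. Of the stomatal lineage FMA, the factor that completes guard cells, rose by 0.74 ± 0.18, while SPCH and MUTE, which start and steer the lineage, changed by 0.72 and 0.22 and were not called. Without dark replicate 2 SPCH was called (0.95; adjusted p = 0.0282). SPCH and MUTE each had a group mean close to the floor. All 3 stomatal genes were called higher in wild type, with no called difference between the genotypes. The 2 measured genes of the flower and pollen list lay between 4.15 and 5.82, and the other markers of that list were not measured. In the cell cycle list 3 of 5 genes rose (1 without dark replicate 1 or light replicate 1 or 3) and 1 fell. Over all genes, 17.7% were called higher and 15.9% lower. The mitotic kinase AUR1 rose by 1.07 ± 0.22, from 5.76, 6.45 and 5.74 to 7.29, 7.12 and 6.76. The part of tissue composition in the results above was not tested.

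The 10 largest rises were led by AT1G23130, which read 4.07, 4.21 and 4.19 in darkness, the floor of the arrays, and 10.09, 10.01 and 10.12 in light. This is a rise of 5.92 ± 0.20 on this scale (adjusted p = 5.59e-09, limma), and it was 5.40 in wild type. From the floor the size is set by the constant, and it was 8.61 with a constant of 1 and 4.09 with one of 64. AT5G38980 rose by 5.29 ± 0.20 and AT3G16670 by 5.03 ± 0.25, against 4.51 and 4.53 in wild type, with no called difference for these 3 genes. THIC, the phosphomethylpyrimidine synthase of thiamin synthesis in the chloroplast, went from 6.31, 6.50 and 5.75 to 9.93, 9.84 and 9.87, a rise of 3.69 ± 0.18 (12.9-fold; adjusted p = 4.72e-08), and by 2.85 in wild type. AT2G36145 rose by 3.68 ± 0.33 from the floor.

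The other 5 of the 10 rose further in amiR-SNF4 than in wild type. AT5G03350 read 7.97, 7.99 and 7.68 in darkness and 11.71, 11.50 and 11.73 in light, a rise of 3.77 ± 0.15 (13.6-fold; adjusted p = 1.41e-08, limma). In wild type it stayed at 5.65 and 5.58, and the difference of 3.84 had the smallest p among the genes called in amiR-SNF4 (adjusted p = 1.25e-06). AT2G45180 rose by 3.81 ± 0.20, from 8.13, 8.73 and 9.005 to 12.51, 12.51 and 12.29, while wild type was at 12.25 in darkness and 12.69 in light (difference 3.37; adjusted p = 1.97e-05). The means of that gene lay close together in light and far apart in darkness. AT2G25510, AT1G69730 and AT1G33811 rose by 3.99, 3.73 and 3.70, with differences of 1.13, 3.05 and 1.21 (adjusted p = 0.025, 5.67e-05 and 0.00362). The first of these reached an adjusted p of 0.071 with 1 array left out. AT2G25510 was also the brightest called gene in light, at 13.62, 13.14 and 13.44, and ECS1 came next, at 12.78, 13.23 and 13.14 after a rise of 2.83 ± 0.37.

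Beside ICL, PAP85, M17, LEA18, ndhF and the LEA loci, 3 genes made up the 10 largest falls. AT2G38240 read 11.22, 10.99 and 11.13 in darkness and 6.26, 6.93 and 6.92 in light, a fall of 4.41 ± 0.24 (21.2-fold; adjusted p = 9.40e-08, limma). JRG21, a jasmonate-regulated gene, fell by 3.81 ± 0.25, from 9.02, 8.32 and 9.05 to 4.63, 4.94 and 5.38. Both were low in wild type in darkness and light, at means of 5.16 and 5.15 for AT2G38240 and of 4.64 and 4.48 for JRG21. The differences were -4.40 (adjusted p = 1.20e-05) and -3.66 (adjusted p = 4.96e-05). AT5G44440 fell by 4.07 ± 0.21, and by 5.05 in wild type.

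The brightest genes of the dark arrays fell by less. OSM34, an osmotin-like defence protein, read 12.62, 12.36 and 12.86 in darkness and 11.45, 11.61 and 11.55 in light, a fall of 1.07 ± 0.25. In wild type it fell by 4.48, from a mean of 10.88 to 6.40 (difference 3.40; adjusted p = 8.33e-05, limma). AT5G38910 fell by 2.46 ± 0.26, from 12.63, 12.22 and 12.80 to 9.70, 10.28 and 10.31, and was at 4.97 and 4.89 in wild type (difference -2.39; adjusted p = 0.00136). AT4G36430 fell by 1.26 ± 0.17, from 12.82, 12.91 and 13.03 to 11.45, 11.91 and 11.61, and was at 6.82 and 6.23 in wild type.

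Most genes called in amiR-SNF4 were also called in wild type in the same direction. In wild type 4656 genes (34.9%) were called, and 2798 genes were called in both genotypes in the same direction, which is 62.3% of the calls in amiR-SNF4 and 60.1% of those in wild type. Across the 13356 genes the light effects of the genotypes, which share no arrays, correlated with a Pearson's r of 0.697 and a Spearman's rho of 0.641. Genes are not independent replicates, and both effects carry the array difference between growth conditions. The difference of the light effects was called for 1066 genes (7.98%), 543 of them higher and 523 lower in amiR-SNF4. This count depended on the processing: it was 278 without normalization, 496 with the spiked controls and 637 with a constant of 1 in place of 16. Of the 4493 genes called in amiR-SNF4, 693 (15.4%) had a called difference, and the light effect was farther from 0 in amiR-SNF4 for 510 of these (206 higher and 304 lower in light) and nearer 0 for 183.

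Among the 5 genes with the smallest p whose light effect was farther from 0, PRXR1, a peroxidase, read 9.44, 9.54 and 9.39 in darkness and 11.63, 11.66 and 11.40 in light, a rise of 2.11 ± 0.13. In wild type it was at 11.89 in darkness and 11.52 in light, a fall of 0.36 (difference 2.47; adjusted p = 1.13e-05, limma). AT1G73600 rose by 2.74 ± 0.12 against 0.54 in wild type, and AT5G35735 fell by 1.60 ± 0.16 against a rise of 1.32 (differences 2.203 and -2.92, adjusted p = 1.24e-05 for each). AT5G03350 and AT2G38240, described above, complete the 5.

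In 127 genes the light effect was called in both genotypes in opposite directions, 74 higher in amiR-SNF4 and lower in wild type and 53 the reverse. AT5G16010 fell by 1.31 ± 0.15, from 10.88, 11.17 and 11.43 to 9.80, 9.90 and 9.85, and rose by 2.08 in wild type, from 7.82 to 9.90. Its mean in light was 9.85 in amiR-SNF4, close to that of wild type, and its mean in darkness was 11.16 (difference -3.39; adjusted p = 2.17e-06, limma). AT1G12080 rose by 1.03 ± 0.22 and fell by 3.13 in wild type, from 11.07 to 7.95 (difference 4.15; adjusted p = 9.21e-06). AT4G16000 rose by 1.74 ± 0.20 and AT3G62040 by 0.61 ± 0.13, against falls of 2.13 and 2.01 in wild type (differences 3.87 and 2.62, adjusted p = 8.82e-06 and 4.35e-06). AT4G34950 rose in both, by 1.39 ± 0.16 in amiR-SNF4 and by 4.11 in wild type (difference -2.72; adjusted p = 1.80e-05).

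**Figure D5:**
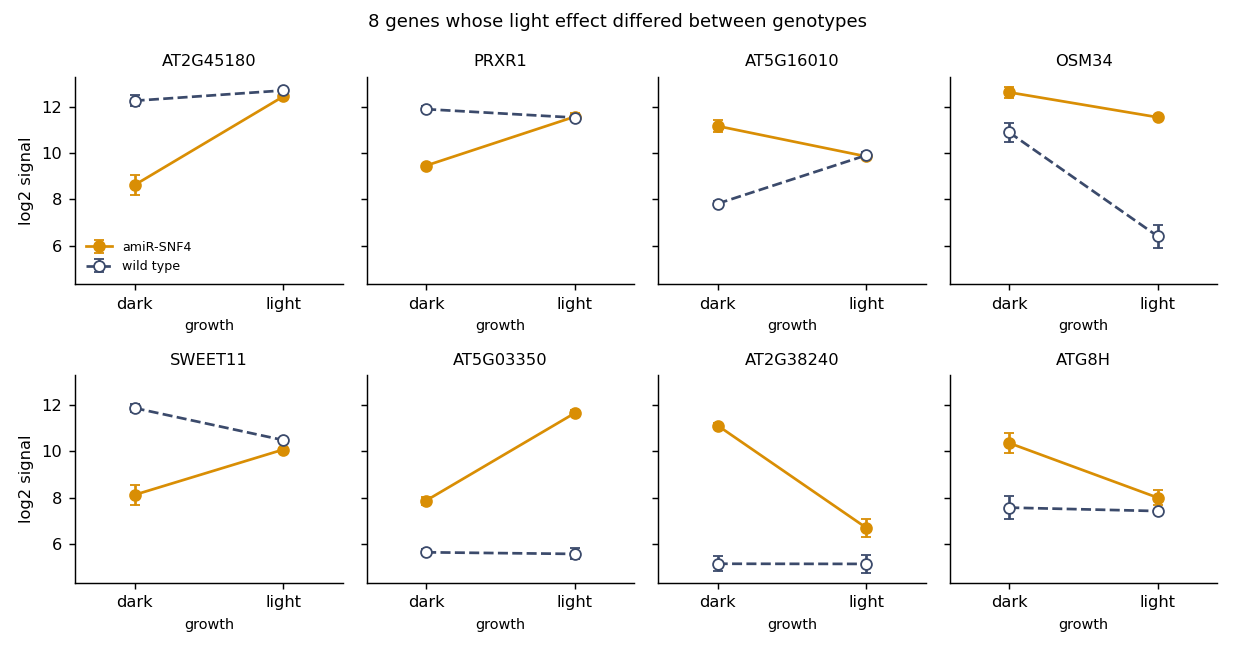
Mean log2 signal in darkness and light of 8 genes whose light effect differed between the genotypes, with error bars of 1 SD (n = 3 arrays per point); filled points and solid lines are amiR-SNF4, open points and dashed lines wild type. AT2G45180, PRXR1 and AT5G16010 have like levels in light and unlike levels in darkness, and OSM34 has like levels in neither.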

How the data were processed

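Total RNA of whole seedlings was read on 12 Affymetrix ATH1 arrays. The authors deposited linear intensity values, 1 per probe set, made with GCOS per the submitters' processing notes; whether they were scaled is not given in the sources used here. Of 22746 non-control probe sets, 13513 name 1 gene in GEO's platform annotation, which gave 13356 genes (the brightest probe set for 146 genes with several), and 13286 matched the TAIR10.1 gene table; no coordinates or promoter sequences were used. Intensities were quantile-normalized. They were tested as log2(intensity + 16) with limma 3.58.1 in R 4.3.3, as 4 group means over all 12 arrays. Benjamini-Hochberg adjustment was over all genes at 0.05. The method was also run on simulated data. That simulation had independent noise and no brightness or batch difference between arrays, so it cannot speak to either here. The number of arrays limits the precision. Alternatives were other scalings, constants and probe sets, dim genes left out, each comparison's own arrays, a replicate block, array weights and each array left out.

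The members and gene lists were chosen with earlier results of these data known. Lists added to those first planned were heat shock, LEA, plastid-encoded, NDH, UDP-glycosyltransferase, cytochrome P450, beta-glucosidase, trichome birefringence-like and defensin genes. Many listed genes were found by their family name in the annotation, and 86 of 394 listed by locus were measured. Named genes were the 10 largest rises and falls without overlap of the arrays, in each list up to 4 called genes, taken by adjusted p, and 1 called against its direction, 5 each of the genes whose light effect was farther from or nearer to 0 than in wild type, 5 of opposite direction and the 5 brightest in each condition. SAG101, SPCH, CHLI2, CHIL, IAA29, CHLM, ATG8B, MUTE, HEME1, Fes1A, AT1G80380, HEMB1, XTH32, PSB27, PSBW and EXPA4 were named after their values were seen.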

Additional observations from a re-analysis of the deposited data

Results flagged for a closer look

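In limma's test of the difference itself, 1066 genes had unequal light effects in the genotypes. Of the genes named in the text, 62 were among them, and each is given here with its difference (log2, effect in amiR-SNF4 minus effect in wild type; adjusted p under 0.05, limma). The light effect was higher in amiR-SNF4 for OCT1 (4.64), AT1G12080 (4.15), AT2G28780 (4.14), ATPMEPCRD (3.94), AT4G16000 (3.87), AT5G03350 (3.84), GAT1_2.1 (3.75), OSM34 (3.40) and AT2G45180 (3.37). It was higher for SWEET11 (3.33), AT1G69730 (3.05), PDF2.1 (2.86), AT3G62040 (2.62), WRKY53 (2.47), PRXR1 (2.47), AT1G73600 (2.203), EXPA16 (1.95) and LHCB4.3 (1.90). Smaller positive differences, also called, were those of TBL37 (1.84), PMEPCRF (1.83), IAA29 (1.82), GSTU20 (1.78), LCR68 (1.75), EXPA4 (1.68), WES1 (1.61), PRK (1.56) and ATG8B (1.33). The smallest positive ones were those of AT1G33811 (1.21), FHL (1.18), AT2G25510 (1.13), AT1G11860 (1.09), SWEET1 (1.03) and AT1G15330 (0.92). The light effect was lower in amiR-SNF4 for WRKY22 (-0.71), EXPA9 (-0.84), WRKY6 (-1.01), CSLD2 (-1.09), SAG101 (-1.19), NDB2 (-1.21), SWEET2 (-1.27) and UGT73C7 (-1.52). Further below 0 were the differences of CHIL (-1.66), AT3G53040 (-1.74), AT3G09440 (-1.84), AT2G23110 (-1.91), BGLU25 (-2.03), AT1G52560 (-2.13), TBL41 (-2.17) and AT2G29500 (-2.20). Lower still were those of ATG8H (-2.21), Hop3 (-2.25), AT2G21640 (-2.31), XTH32 (-2.33), BGLU28 (-2.37), AT5G38910 (-2.38), Fes1A (-2.43) and AT4G34950 (-2.72). The most negative differences were those of AT5G35735 (-2.92), AT1G74460 (-3.37), AT5G16010 (-3.39), JRG21 (-3.66) and AT2G38240 (-4.40).

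Of these 62 differences 47 were called whichever of the 12 arrays was left out. The other 15 were lost without at least 1 array. Those lost without any 1 of 5 or more arrays were AT1G11860 (9 arrays, adjusted p up to 0.106), AT1G15330 (5 arrays, adjusted p up to 0.068), AT2G25510 (6 arrays, adjusted p up to 0.071), FHL (7 arrays, adjusted p up to 0.066), LCR68 (8 arrays, adjusted p up to 0.0812), SWEET1 (5 arrays, adjusted p up to 0.0685), WRKY22 (8 arrays, adjusted p up to 0.109) and WRKY6 (8 arrays, adjusted p up to 0.0833). Those lost without any 1 of 2 to 4 arrays were AT2G23110 (3 arrays, adjusted p up to 0.0569), AT3G53040 (2 arrays, adjusted p up to 0.0556), CSLD2 (4 arrays, adjusted p up to 0.0588), EXPA9 (4 arrays, adjusted p up to 0.0638), GSTU20 (4 arrays, adjusted p up to 0.0675) and PRK (3 arrays, adjusted p up to 0.0584). ATG8B was lost without light replicate 3 of amiR-SNF4 alone (adjusted p = 0.0505).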

How the results depend on the processing

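Array batch cannot be told apart from growth condition, no probe set named SNF4, and 3 arrays per group limit the precision; dim genes, near the floor, are the least precise. Scaling to the spiked controls gave 8896 called genes in amiR-SNF4 (5497 of them at least 2-fold), 8576 in wild type and 496 differences, and turned these changes in amiR-SNF4 from below 0 to above it (log2): ATG8F 0.39, AKINBETA1 0.40, AT4G36430 0.040, AT5G16010 0.17, SAG101 0.60, FHL 0.41, WES1 0.32, APG8A 0.040, OSM34 0.34, ATG8B 0.29, WRKY22 0.093, HYH 0.027, BZIP28 0.50, LHCB4.2 0.33, OCT1 0.0055, AT1G74460 1.12, AT1G74470 0.57, AT1G80380 0.99, AT1G80940 0.58, AT1G15330 0.40, XTH32 1.00, GI 0.38, ATPMEPCRD 0.77, EXPA4 0.82. List medians turned likewise were light signalling 0.22, xyloglucan endotransglucosylases 0.18, auxin response, shade and hook genes 0.64, dark and starvation induced 0.0012, SnRK1 subunits 0.74, sugar transport and starch 0.78, circadian clock 0.38, salicylate and immunity 0.69, unfolded protein response 0.93, oxidative and mitochondrial stress 0.97, autophagy 0.39, plastid-encoded genes 1.09, UDP-glycosyltransferases 0.63, cytochromes P450 0.56, beta-glucosidases 0.30, trichome birefringence-like 0.81, plant defensins and cysteine-rich peptides 0.41. Without normalization 278 differences were called (88 higher and 190 lower), the at least 2-fold genes were 1567 higher and 461 lower, the wild-type calls 3649 higher and 619 lower, and the values turned were AT1G74460 0.16, AT1G80380 0.045, XTH32 0.10, and for list medians xyloglucan endotransglucosylases 0.00028, sugar transport and starch 0.13, oxidative and mitochondrial stress 0.21, plastid-encoded genes 0.16, cytochromes P450 0.0046, trichome birefringence-like 0.18, plant defensins and cysteine-rich peptides 0.074. A constant of 1 gave 637 differences and one of 64 gave 950 genes at least 2-fold. With dim genes left out the trichome birefringence-like median was 0.060, leaving out 1 array moved IAA29 between -0.096 and 0.28, and with the dimmest probe set GAT1_2.1 changed by -0.43. Median scaling turned the near-zero medians of cellulose synthases and pectin methylesterases -0.038, histones -0.015, plastid NDH complex -0.036. The cause of these shifts was not tested. Leaving out 1 array in turn gave 3680 to 4308 called genes in amiR-SNF4, 1611 to 1952 at least 2-fold, 3757 to 4318 in wild type and 737 to 1145 differences. Same-numbered dark and light amiR-SNF4 arrays deviated together with correlations of 0.129, 0.0061 and 0.107, light replicate 2 correlated best with dark replicate 3 (0.0418), and the numbers share only a name; with the replicate number as a block the counts were 4293, 1761, 4487 and 902. Array weights, chosen after seeing the data, gave 4586, 1664, 5153 and 1368. Median scaling, the groups of each comparison alone and the other probe set left these counts within 1.5 times.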

Other observations

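A further 373 genes had a called difference between the genotypes but no called light effect in amiR-SNF4. In wild type 134 of them were called higher and 230 lower in light. The 5 with the smallest p, picked after their values were seen, were OCT1, GAT1_2.1, ATPMEPCRD, AT1G74460 and AT2G28780. OCT1, an organic cation transporter, lay near the floor in amiR-SNF4 (mean log2 signal 4.35 in darkness and 4.18 in light) and fell in wild type from 8.87 to 4.06 (difference 4.64; adjusted p = 4.43e-08, limma). ATPMEPCRD, a pectin methylesterase, was at 6.79 and 6.41 in amiR-SNF4 and fell from 11.60 to 7.29 in wild type (difference 3.94; adjusted p = 2.17e-06). GAT1_2.1, an amidotransferase-like protein, was at 8.37 and 8.66 in amiR-SNF4 and fell from 9.95 to 6.49 in wild type (difference 3.75; adjusted p = 1.05e-06). AT2G28780 was at 4.78 and 4.11 in amiR-SNF4 and fell from 9.11 to 4.301 (difference 4.14; adjusted p = 2.54e-05). For these 4 genes the wild-type dark mean stood above the other 3 means. AT1G74460 went the other way: it was at 10.03 and 9.81 in amiR-SNF4 and rose from 5.41 to 8.56 in wild type (difference -3.37; adjusted p = 3.22e-06).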
